A study of Bubalus bubalis with 8 samples.

Results

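The proteasome subunits were read by 84 of the 43653 probes of the array, under 41 of its 24839 gene names. They were taken by name as every probe outside the control spots whose gene name starts with PSMA, PSMB, PSMC, PSMD or PSME, leaving out PSMB8 and PSMB9. Of these probes, 32 read the core particle (17 of PSMA and 15 of PSMB genes), and 52 bear names of the regulatory particle and the activators (13 of PSMC, 29 of PSMD and 10 of PSME genes). The 13 include 2 probes of PSMC3IP, a meiotic recombination factor that is no proteasome subunit and was not well above background on any array. Among the PSMD names, PSMD5, PSMD9 and PSMD10, with 4 probes, are chaperones of base assembly. Gene expression was measured in primary mammary epithelial cells (MECs) of buffalo after 10 passages, from 1 animal, on a bovine array with 1 colour. The untreated cells (CTR) stayed at 37 °C throughout, while the heat stressed cells spent 1 h at 42 °C, went back to 37 °C and were harvested after recovery for 30 min or for 2, 4, 8, 12, 16 or 24 h. Where 7 values follow each other in time order, they are those of these time points. Each of the 8 conditions had 1 array, so no test between conditions and no p-value could be given, and a cell that makes less of an RNA cannot be told apart from fewer cells making it. CTR lay on 1 slide with the arrays of 8, 12 and 24 h, and the arrays of 30 min and of 2, 4 and 16 h lay on the other. At these last 4 time points an effect of heat stress and one of the slide cannot be told apart. The labels give no harvest time for the CTR array, so at all 7 time points heat stress and time in culture cannot be told apart either.

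The proteasome degrades proteins tagged with ubiquitin. Its barrel-shaped core is built of rings of PSMA (alpha) and PSMB (beta) subunits, and the beta subunits PSMB5, PSMB6 and PSMB7 cut the peptide chain. A regulatory cap sits on the barrel, with a ring of PSMC ATPases that unfold the substrate and PSMD subunits that bind it and remove its ubiquitin, while the PSME proteins are other activators of the core. Cells can make more subunits through the transcription factor NFE2L1. The question put to these arrays was whether proteasome transcripts were higher after heat stress.

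Levels are given as log2 of the processed signal over the 75th percentile of its array, and changes as the difference from CTR on that scale. Where a probe was spotted more than once on an array, its spots gave a change an error (SD) between 0.29 at 8 h and 0.52 at 16 h. This is the error within an array only. A member was called higher or lower when it differed from CTR at least 2-fold, the lowest cutoff of the study. Of the 84 member probes, 62 were well above background on all 8 arrays and 11 on none, and no member spot was saturated. Of the epithelial markers, 6 of 7 genes were well above background on CTR, with KRT18 below it there, and KRT5 stood at 7.91 and KRT19 at 7.07. Of the fibroblast genes 4 of 6 were above background on CTR, with VIM at 7.47, as were 2 of 4 leukocyte genes and none of the 2 endothelial genes.

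The CTR array had a dark region, and the proteasome probes that differed most from CTR lay in it. In a rectangle of 115 rows that ends at row 330, between columns 30 and 59, lay 3357 probes, and in 71.9% of the bright ones the CTR level was at least 1 log2 unit under the median of the other 7 arrays, against 3.12% of the bright probes elsewhere. This rectangle was set beforehand because its probes were dark on CTR in these same data. The contrast of these shares thus follows from its choice. The members inside this rectangle numbered 6, for PSMB4, PSMB6, PSMC2, PSMC5, PSMD8 and PSMD12, and the 78 others lay outside. To read the local shading, the median over all bright probes within 10 spots of a member was taken, without the members themselves.

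**Figure D1:**
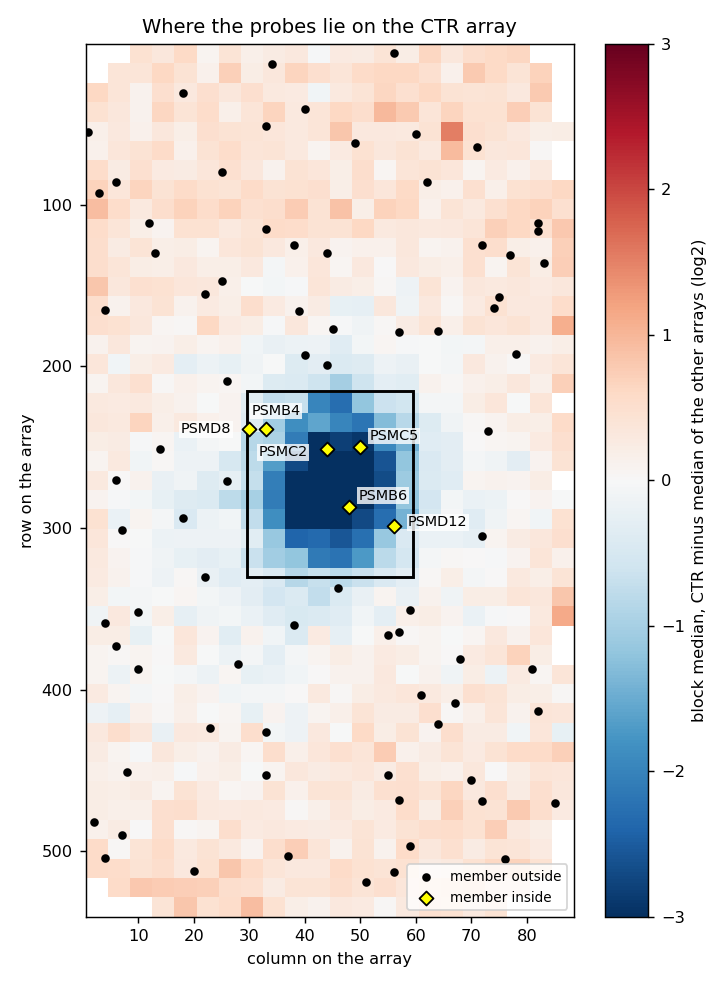
Position of the 84 member probes on the array, by column (x axis) and row (y axis), over the CTR level minus the median level of the other 7 arrays (log2, median over the bright probes in blocks of 12 rows and 4 columns). The black outline is the rectangle. The 6 members inside it are named, and PSMC2, PSMC5 and PSMB6 lie in the darkest part.

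PSMC5, an ATPase of the base of the cap, was read both inside and outside the rectangle. These 2 probes are shown because they read neighbouring parts of 1 transcript and gave opposite accounts of it. The probe inside (row 250, column 50) lies at chr19:49623750-49623809 of the cattle genome and the one outside (row 251, column 14) at chr19:49623286-49623345, of a build not given in the sources used here.
PSMC5 inside: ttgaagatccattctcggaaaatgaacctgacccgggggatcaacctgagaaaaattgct
PSMC5 outside: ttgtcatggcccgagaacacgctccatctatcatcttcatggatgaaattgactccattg

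Inside, PSMC5 had a level of 0.36 on CTR, 4.11, 4.08, 4.22, 4.18, 4.21, 3.87 and 4.64 in time order. CTR alone was low, and the change from it was 3.51 to 4.28 at all 7 time points, with no time course. The probe outside in almost the same row had 3.32 on CTR, 2.97, 3.22, 3.61, 3.03, 3.33, 3.13 and 3.35 in time order, so its changes lay between -0.35 and 0.28. Another PSMC5 probe outside (row 111, column 12) changed by 0.35 at 30 min and by -0.67 at 16 h, with the other time points in between. Relative to the error of its time point, none of these outside changes exceeded 1.33 times. Set against the probe in row 251, the level of the inside probe differed by -2.97 on CTR and by 0.95 on average (SD 0.25) on the other 7 arrays, so it was the CTR array that stood apart. The 103 bright neighbours of the inside probe themselves changed by 2.29 to 2.96, and PSMC5 exceeded them by 0.89 to 1.44. Of these neighbours, 35 were at the noise value on CTR, so their change is only a bound. The 15 of like brightness (within 1 log2 unit) had a median CTR level minus that of the other arrays of -4.01. PSMC5 had -3.82, and 8 of the 15 were as low or lower, so they left no excess for PSMC5.

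PSMC2, another ATPase of the base, was the member with the largest difference from CTR and had no second probe. The first 30 of its 60 bases are given so that the probe behind this value can be found.
PSMC2: tactccccgctatatgacatacaactgagc

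PSMC2 stood at -2.52 on CTR, which is the value that 53.5% of the CTR spots share because they lie at the noise of the array. On the other arrays it was 4.33, 3.99, 4.21, 4.44, 4.10, 4.01 and 4.24 in time order. The 7 heat stressed arrays thus spread over 0.46 log2 units, and CTR had no reading of its own. Since PSMC2 was not well above background on CTR, its difference is only a bound on the signal. Against the detection limit of CTR, the signal was at least 18.2-fold higher at all 7 time points, with the lowest bound at 2 h. That limit was set for the array as a whole and need not hold at a darkened spot. No minimum fold change of the transcript follows from it. Its 106 bright neighbours changed by 2.49 to 3.15, and their CTR level minus the median of the other arrays ranged from -7.66 to 0.43. Of them, 40 were at the noise value on CTR. The 18 of like brightness had a median of -3.61, where PSMC2 had -6.73 and 2 of the 18 were as low or lower. The darkening was uneven from spot to spot, and this array gave no level of PSMC2 in untreated cells.

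PSMB4, a beta subunit without catalytic activity, repeated the pattern on a smaller scale at the margin of the dark region. Inside (row 239, column 33) its level was 4.92 on CTR, 5.71, 5.73, 5.79, 6.09, 5.77, 5.74 and 5.63 in time order, higher than CTR by 0.70 to 1.16 throughout. The probe outside (row 470, column 85) had 5.85 on CTR, 5.36, 5.46, 5.79, 5.58, 5.50, 5.85 and 5.85 in time order, and never exceeded CTR. The neighbours of the inside probe changed by 0.70 to 1.01, and PSMB4 differed from them by -0.19 to 0.16. It exceeded them by 0.09 at 30 min and 0.16 at 8 h. The 3 neighbours of like brightness had a median CTR level minus that of the other arrays of 0.15, where PSMB4 had -0.81 and 1 of the 3 was as low.

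PSMD12, a subunit of the lid that covers the base, had its only probe inside, at row 299 and column 56. The level was 0.82 on CTR, 1.49, 1.57, 1.96, 2.95, 2.68, 1.76 and 2.17 in time order. Every heat stressed array was above CTR, but relative to its neighbours PSMD12 was lower at 5 time points, to -1.02 at 16 h, and higher at 8 h (0.82) and 12 h (0.43). PSMB6, the beta subunit with caspase-like activity, could not be read inside, where its probe was not well above background on any array. Its probe outside changed by -0.14 to -0.73 and stood at 4.53 on CTR.

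PSMD8, also of the lid, is the exception among the members inside. Its inside probe (row 239, column 30) and one of its outside probes (row 330, column 22) share 55 bases with 1 mismatch and are shown over 30 of them, with the mismatch in capitals.
PSMD8 inside: aggcagttTcagtgcagagttccccccacc
PSMD8 outside: aggcagttGcagtgcagagttccccccacc

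The inside probe of PSMD8 had 4.23 on CTR, 5.18, 5.01, 5.32, 4.72, 4.37, 5.59 and 4.35 in time order. The overlapping outside probe had 5.18 on CTR, 5.95, 5.85, 6.53, 5.80, 5.32, 6.49 and 5.55 in time order. Both followed the same course, highest at 4 h and 16 h, and their changes differed by -0.04 on average (SD 0.18 over the 7 time points) and by 0.26 at most. Both lie at the margin of the dark region, where the neighbours' CTR level minus that of the other arrays was -0.50 and -0.30. The remaining PSMD8 probe (row 305, column 72), whose neighbours were not darkened (-0.01), changed by 0.02 to 0.46 except at 16 h, where it was 0.82 higher.

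**Figure D2:**
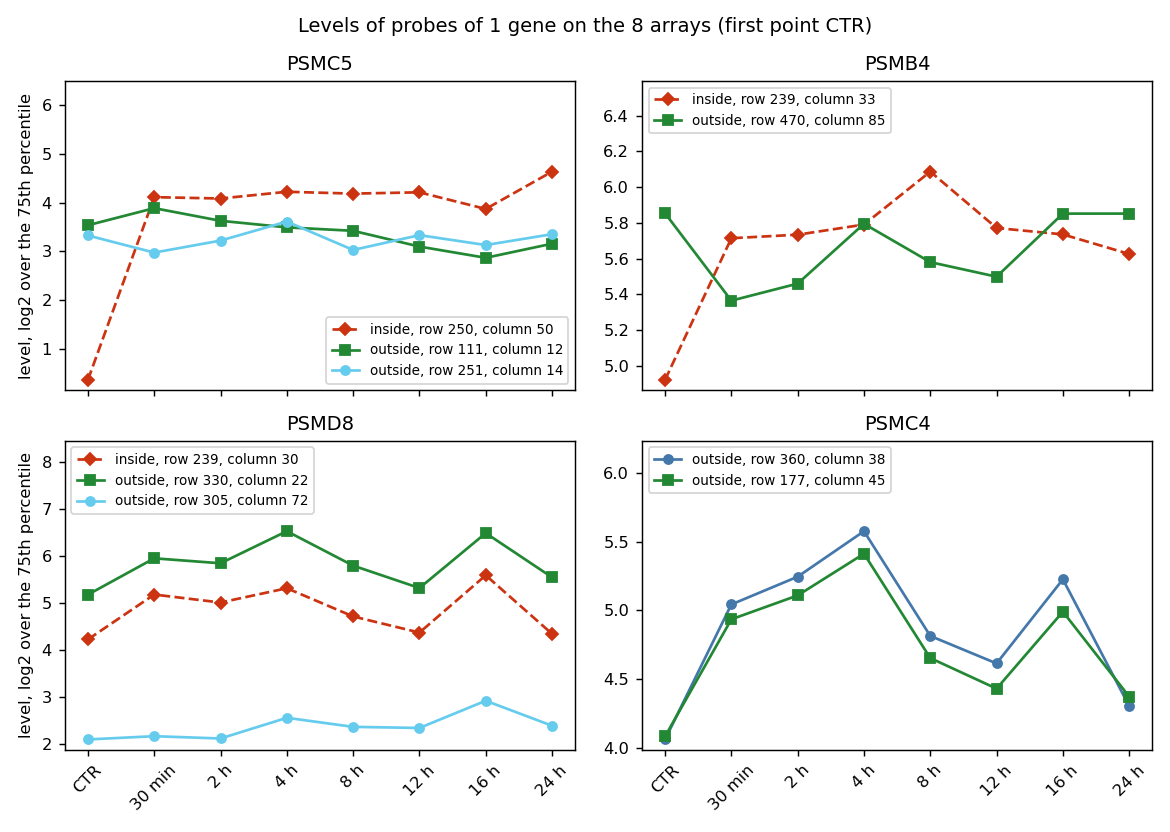
Level (y axis, log2 over the 75th percentile of the array) of every probe of PSMC5, PSMB4, PSMD8 and PSMC4 on the 8 arrays (x axis). Dashed red lines are probes inside the dark rectangle, solid lines probes outside. The inside probes of PSMC5 and PSMB4 are low on CTR only (0.36 and 4.92), the overlapping PSMD8 probes run in parallel, and the 2 PSMC4 probes, both outside, run together.

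Among the 59 to 64 members outside the rectangle that were well above background on both arrays compared, the median level was not above CTR at any time point under the 75th percentile scaling. The median change was -0.26, -0.35, -0.11, -0.05, -0.28, -0.25 and -0.16 in time order. Every median was under 0 on this scale, but the sign depended on the processing. Scaled to the median of each array it was 0.35, 0.97 and 0.13 at 2, 4 and 8 h. Under normexp background correction it was 0.28, 0.47 and 0.094 at 2, 4 and 12 h. The 30 min scanner intensities, another source and not another scaling, gave 2.19, where all probes had a median of 2.02. That value covers only the 28 members that passed the background filter with them. Over the 62 members above background on all arrays, scanner minus deposited values had a median of -2.59. Under the 75th percentile scaling, the median over all probes measured in the same way was -0.22, -0.41, -0.18, -0.14, -0.30, -0.02 and -0.14 in the same order, so that members and all probes differed by -0.04 to 0.09 at 6 time points, and by -0.23 at 16 h. Inside the rectangle the 4 members measurable on CTR had medians of 0.80 to 1.65, and all 4 were above CTR at all 7 time points.

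At 30 min 0 of 61 members outside were higher, where 7.91% of all probes were, and 9 were lower, where 15.1% were. At 2 h 2 of 64 were higher (all probes 5.59%) and 7 lower (23.2%). At 4 h 4 of 64 were higher (5.73%) and 4 lower (14.5%). At 8 h 1 of 63 was higher (2.29%) and 0 lower (3.07%). At 12 h 1 of 64 was higher (0.815%) and 0 lower (6.14%). At 16 h 2 of 59 were higher (9.16%) and 7 lower (11.6%), and at 24 h 0 of 62 were higher (0.625%) and 3 lower (3.83%). Higher calls were near or under the share of all probes at each time point. Lower calls were under it from 2 h to 12 h and near it at 30 min, 16 h and 24 h. Inside the rectangle, 1, 1, 3, 3, 2, 2 and 2 of the 4 measured members were 2-fold higher in time order, where 53.1%, 47.7%, 54.5%, 63.1%, 55.5%, 56.2% and 53% of all measured probes inside were. These counts depended on the processing. At 30 min the scanner intensities in place of the deposited values gave 26 of 28 members higher and 0 lower, where 84.2% and 1.96% of all probes were. Scaled to the median of each array, 31 of 64 members were higher and 0 lower at 4 h, but so were 44.4% of all probes against 1.94% lower, and at 2 h 7 were higher and 0 lower (all probes 18.2% and 7.39%). Under normexp background correction 12 were higher and 0 lower at 4 h (16.4% and 4.46%), and 6 and 0 at 2 h (12.1% and 7.48%). At the other times, median scaling gave 2 higher at 8 h (3.94%) and 11 and 7 lower at 16 h and 24 h (14.2% and 15.5%), and normexp 4 lower at 16 h (7.31%). Quantile normalization gave 12, 7 and 11 lower at 2, 4 and 16 h (23.9%, 15.8% and 14.3%) and 1 higher at 16 h (7.51%). The distance of the members' median from that of all probes moved little, to at most 0.19 at 2 h and 4 h.

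**Figure D3:**
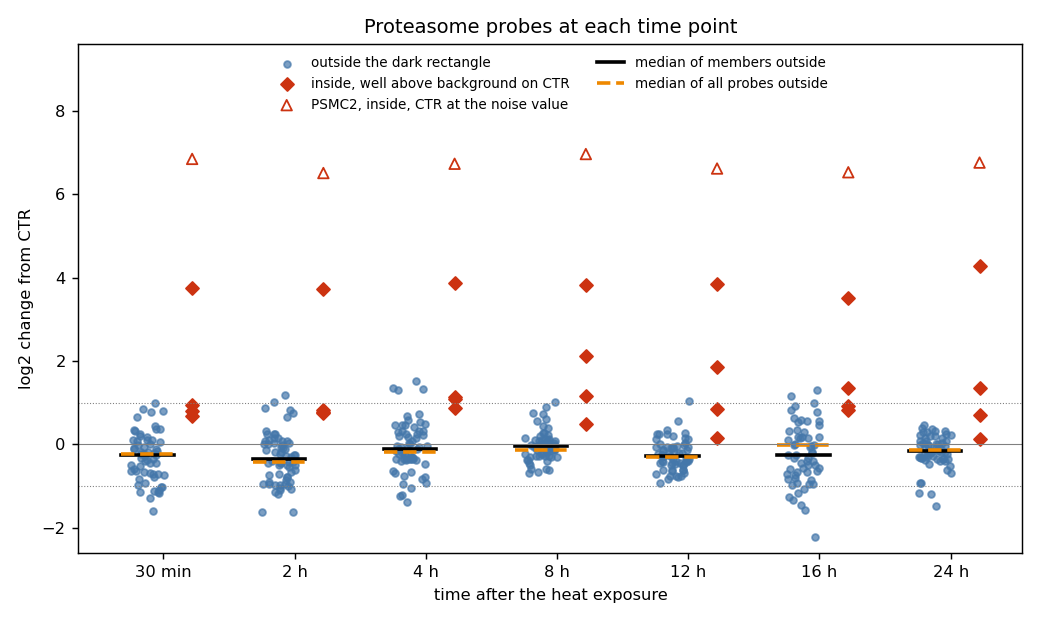
Change from CTR (y axis, log2) of member probes at the 7 time points (x axis). Blue points are members outside the rectangle and red diamonds those inside, all well above background on both arrays; open triangles are PSMC2, which was at the noise value on CTR. Black bars are medians of the members outside and dashed orange bars medians of all probes outside, which lie within 0.09 of each other except at 16 h, while all inside members are above 0.

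For core probes outside the rectangle the median change ran from -0.39 at 2 h to -0.00 at 8 h, and for regulatory probes from -0.31 at 30 min to -0.04 at 4 h. They were within 0.19 of each other at all 7 time points, with no error for a difference of medians at hand. Of the 58 probes outside that passed the background filter on every array, 7 were above CTR at all 7 time points and 18 were below. The same count over all probes is not given here. At each single time point most probes outside lay below CTR, from 4568 of 8909 at 16 h to 8052 of 10918 at 12 h. The 7 above CTR were 2 probes each of PSMC4 and PSMD8 and 1 each of PSMA1, PSMA5 and PSMD4. Of these, the PSMA1 and PSMA5 probes and 1 probe each of PSMC4 and PSMD8 had darkened neighbours on CTR (-0.24, -0.66, -0.26 and -0.30).

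PSMC4, an ATPase of the base like PSMC2 and PSMC5, had the highest mean change over the 7 time points (0.84). This ranking is among the 33 member genes read outside the rectangle on all 8 arrays. It is on the array under 2 probe names with the same 60 bases, spotted far apart at row 177, column 45 and at row 360, column 38, and the first 30 bases are shown because the pair works as a repeat measurement.
PSMC4, both probes: ccccaaacctagttctctttcctctttacc

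The probe in row 177 had a level of 4.08 on CTR, 4.94, 5.11, 5.41, 4.65, 4.43, 4.99 and 4.37 in time order. The one in row 360 had 4.06 on CTR, 5.04, 5.25, 5.58, 4.81, 4.61, 5.23 and 4.30 in time order. CTR was the lowest of the 8 arrays at both positions and 4 h the highest, 2.52-fold and 2.86-fold above it. Between the positions, the changes differed by 0.17 on average and by 0.26 at most. On CTR the neighbours of the probe in row 360 were slightly darkened (-0.26) and those of the probe in row 177 were not (0.04). The latter changed by no more than 0.18 upwards, and PSMC4 exceeded them by 1.09 or more at the 4 time points of the other slide and by 0.28 to 0.40 at 8 h, 12 h and 24 h. The larger changes all fell on the slide without CTR. On the slide of CTR the probe in row 177 changed by 0.57, 0.35 and 0.29 at 8, 12 and 24 h and that in row 360 by 0.75, 0.55 and 0.24, of which the values at 24 h were smaller than the error of 0.36. Without the time points of the other slide, no PSMC4 probe was 2-fold higher.

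**Figure D4:**
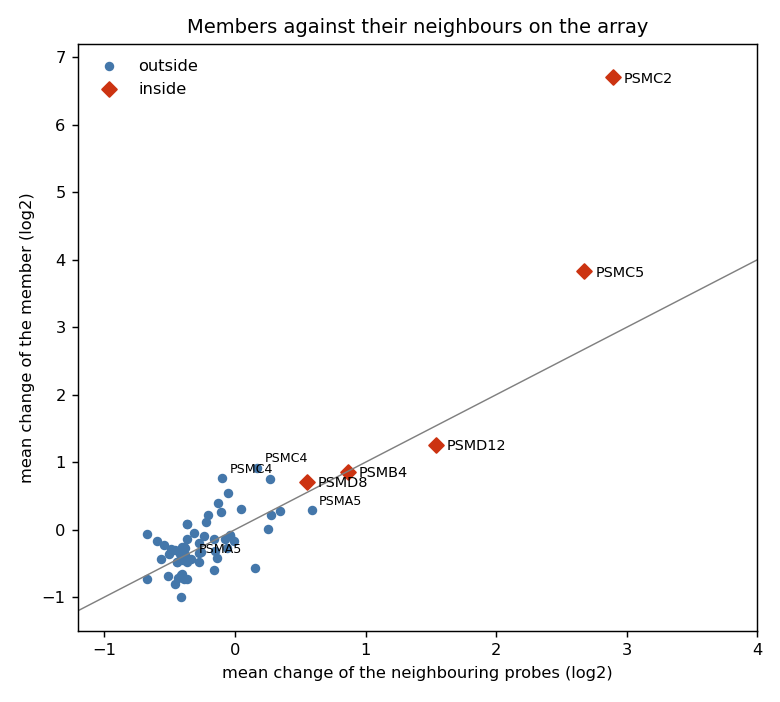
Mean change of each member over the 7 time points (y axis, log2) against the mean change of the bright probes within 10 spots of it (x axis, log2), for members well above background at all 7 time points. The line marks equal values. PSMB4, PSMD8 and PSMD12 inside the rectangle (red diamonds) and the darkened PSMA5 probe lie near it, PSMC5 and PSMC2 above it (PSMC2 with CTR at the noise value), and both PSMC4 probes above their neighbours.

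In the alpha ring, which gates the entry to the core, the 15 probes measured had medians of -0.29 to 0.05. PSMA1 had the highest mean change over the 7 time points (0.21, where its neighbours, darkened by -0.24 on CTR, had 0.27) and PSMA4 (-0.44) and PSMA2 (-0.36) the lowest among genes read on all arrays. PSMA5 differed between overlapping probes. Its probe 4 columns from the rectangle (row 271, column 26) was above CTR at all 7 time points, by 0.11 to 0.73, and a second probe that shares 59 bases with it, 3 of them mismatched, was below CTR at all 7 (-0.05 to -0.69). The neighbours' CTR level minus that of the other arrays was -0.66 for the former and 0.32 for the latter, and the difference between the probes was 0.73 (SD 0.22). PSMA3 had a level of 2.13 on CTR, 0.85, 0.52, 0.91, 2.13, 1.77, -0.79 and 1.22 in time order. Its changes on the slide without CTR were -1.22 to -1.62, and it was at least 4.67-fold lower at 16 h, with a spot not well above background. Among 4 PSMA7 probes above background, 1 fell apart from the rest, with changes of -2.23 at 16 h and -1.49 at 24 h where the others lay between -0.39 and 0.16.

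In the beta ring the 10 probes outside had medians of -0.44 to -0.10, and no probe was called higher. PSMB1, a non-catalytic beta subunit, came closest. Its level was 5.01 on CTR, 5.81, 5.89, 5.68, 4.97, 4.87, 5.59 and 5.01 in time order. All 4 arrays of the other slide were above all 4 of the slide of CTR, by at least 0.58, and on the slide of CTR the 3 changes were at most 0.13 in size. PSMB3 was called lower at 2 h (-1.07) and 4 h (-1.24) by 1 probe, but the second changed by -0.13 and -0.46 there. PSMB7, which carries the trypsin-like activity, had mean changes of -0.29 and -0.49 in its 2 probes, with 1 call at 30 min (-1.02). PSMB2 had mean changes of 0.01 and -0.33. The immunoproteasome subunit PSMB10 was above background on 1 of the 8 arrays, at 2 h, and PSMB11, known from the thymus, on none.

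Of the other ATPases, PSMC6 was lower than CTR throughout. It stood at 4.22 on CTR, 3.19, 3.25, 3.56, 3.99, 3.59, 3.28 and 3.02 in time order, and was called at 30 min and 24 h. At 24 h its neighbours had changed by -1.14 as well, and PSMC6 differed from them by -0.06. PSMC3 had mean changes of -0.26 and -0.48, and the 2 PSMC1 probes of -0.48 and -0.16.

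PSMD1, the largest scaffold of the base, was read by 5 probes outside the rectangle. At 30 min the 4 probes above background on all arrays changed by -1.11 or more strongly and at 2 h by -0.96 to -1.61, and the fifth fell below the detection limit at 30 min. All 5 were still under CTR at 4 h (-0.14 to -1.38) and at 8 h (-0.07 to -0.58). By 24 h they lay between -0.35 and 0.21. The brightest had 5.31 on CTR, 4.16, 4.32, 4.67, 5.24, 4.70, 4.92 and 4.97 in time order, and so was lower at all 7 time points, least at 8 h. Neighbours of the 4 changed by -0.41 to -0.66 at 30 min and 2 h, and the probes differed from them by a further -0.39 to -1.07. The early arrays and CTR were on different slides, so for PSMD1 too an effect of the slide cannot be told apart. PSMD2, the other large scaffold, changed by no more than 0.32 either way.

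Other PSMD subunits split by probe as much as by gene. PSMD4, a receptor for ubiquitin chains, had 1 probe called higher at 4 h (1.31), another that overlaps it over 48 bases with 0.54 there, and 1 called lower at 30 min, 2 h and 16 h (-1.15, -1.08 and -1.58), whose neighbours changed by -0.93 to -0.98 at these times. PSMD14, the deubiquitinase of the lid, was called lower at 30 min, 2 h and 16 h by the probe with 3.16 on CTR (-1.09, -1.15 and -1.45) and higher at 8 h and 12 h (1.02 and 1.05) by a probe 17 rows from the rectangle, whose neighbours changed by 0.78 and 0.58. Without that and 6 other members outside whose neighbours had a CTR level minus that of the other arrays of -0.2 or lower, no member was called higher on the slide of CTR, and the other higher calls numbered 1 at 2 h, 2 at 4 h and 0 at 16 h. PSMD7, of the lid, was under CTR at all 7 time points, from -0.07 at 8 h to -1.33 at 16 h. Over the 19 genes with several probes outside above background on all arrays, the probes of 1 gene differed at a time point by 0.47 in the median, least for PSMC4 (0.17) and most for PSMD4 (1.29).

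Among the activators, PSME1 and PSME2 form a ring that interferon is known to induce. PSME1 was at most 0.46 above CTR up to 12 h, and at 16 h its probes were 0.53 and 1.00 higher. The PSME2 probes changed by 0.56 and -0.59 at 16 h. PSME4, an activator of the nucleus, had by its brightest probe 1.82 on CTR, 0.84, 0.64, 1.04, 1.90, 1.06, 0.57 and 1.86 in time order. It was called lower at 2 h and 16 h, while at 8 h and 24 h it lay within 0.08 of CTR. A second probe, above background on CTR and at 5 time points, was called lower at 4 h (-1.04) and changed by 0.43 at 8 h and 0.33 at 24 h.

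**Figure D5:**
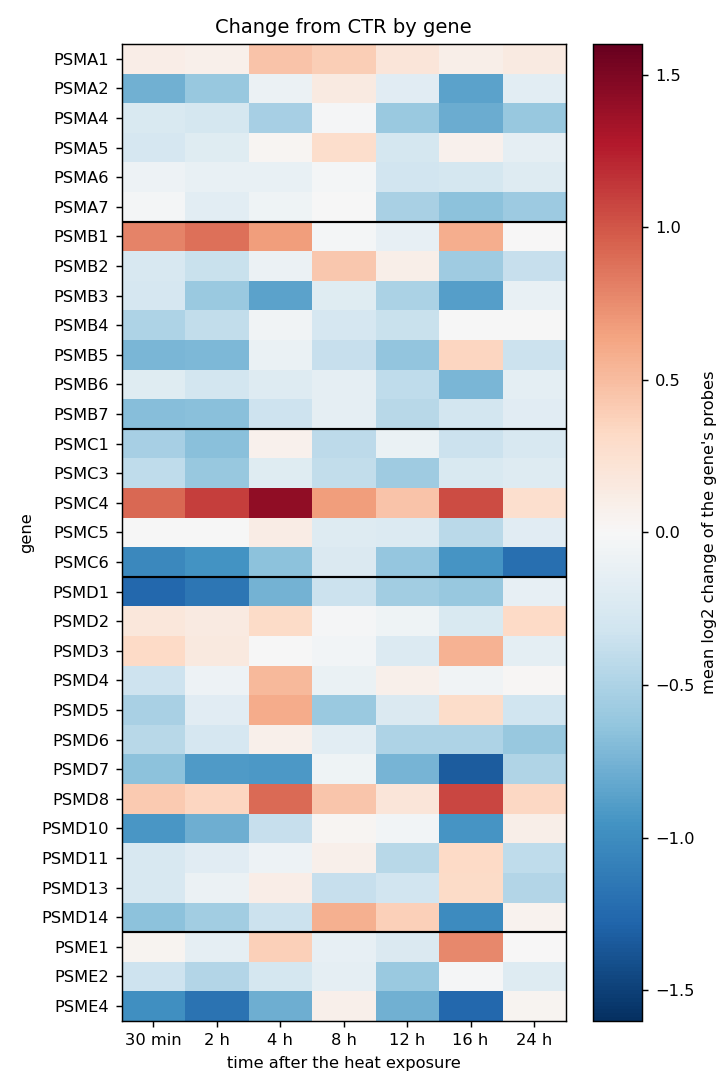
Change from CTR (colour, log2, mean over a gene's probes) at the 7 time points (x axis) for the 33 genes (y axis) with a probe outside the dark rectangle that passed the background filter on every array, by family from PSMA to PSME. PSMC4 and PSMD8 are red throughout, PSMD1, PSMC6 and PSME4 are blue at 30 min and 2 h, and most other genes stay pale.

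The wider pathway was taken as a list of assembly factors, ubiquitin receptors, ubiquitin genes, the p97 segregase and NFE2L1. Its probes outside the rectangle that were measured on both arrays numbered 44 to 50, and their medians were -0.01, -0.17, -0.03, -0.16, -0.33, 0.07 and -0.21 in time order, within 0.25 of those of all probes. Of the 44, 50, 50, 46, 49, 44 and 45 probes measured in time order, 2, 1, 0, 1, 1, 2 and 0 were 2-fold higher, beside 7.91%, 5.59%, 5.73%, 2.29%, 0.815%, 9.16% and 0.625% of all probes. Lower were 1, 4, 2, 1, 5, 6 and 0, beside 15.1%, 23.2%, 14.5%, 3.07%, 6.14%, 11.6% and 3.83%. NFE2L1 had 3 probes above background on all arrays, of which 1 changed by 0.97, 1.08, 1.00, -0.14, -0.38, 1.65 and 0.42 in time order and was called higher at 2 h and 16 h. The others lay between -0.67 at 12 h and 0.71 at 16 h. All 3 were above CTR on the 4 arrays of the other slide and below it at 8 h and 12 h. Another NFE2L1 probe, above background on 6 arrays with CTR among them, went another way. It was 2-fold lower at 2 h (-1.03), changed by 0.03 at 4 h and 0.39 at 16 h, and was not detected at 30 min or 24 h. POMP, the chaperone of core assembly, lay between -0.48 and 0.19, and the brighter ADRM1 probe, of the receptor in the cap, between -0.39 and 0.55. The list also had probes inside the dark region. A UBB probe there was at the noise value of -2.52 on CTR, whereas 3 outside changed by -1.51 to 0.95.

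PSMB8 and PSMB9, which replace catalytic subunits in the immunoproteasome and were left out of the members, had no probe well above background on CTR. PSMB9, by the probe that was brightest at 2 h, 4 h and 16 h, was at least 15.0-fold higher at 30 min, 14.5-fold at 2 h, 2.50-fold at 4 h and 10.1-fold at 16 h, and on the slide of CTR its levels were -0.70, -0.89 and -0.96, with -0.39 on CTR itself. These 4 time points are those of the slide without CTR, on which PSMB1, PSMC4 and PSMD8 were also higher. The PSMB9 levels differed within that slide, with 3.71, 3.66, 1.12 and 3.14 at 30 min and 2, 4 and 16 h. PSMB8, by its brightest probe, had 3.70, 3.63, -0.21 and 2.27 there. For none of these genes can the change from CTR be told apart from an effect of that slide, and the cause was not tested.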

How the data were processed

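RNA of 8 conditions was hybridised to 1-colour (Cy3) bovine arrays, 1 array each. The authors scanned them with a GenePix-4000B, and the processed spot intensity in each deposited file came from Feature Extraction 9.5.3.1 with spatial and multiplicative trends removed. The log2 values the authors deposited were made in GeneSpring GX by a shift to each array's 75th percentile, then centred per probe on the median of the 8 arrays.

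Here log2 of the processed intensity minus the 75th percentile of the array was used, without outlier-marked spots, with spots of a probe averaged. At 30 min the deposited log2 difference from CTR was used, because the scanner intensities of that array departed from it. Over the 62 members above background on all arrays they did so by -7.54 to 2.58 (median -2.59). Detection at 30 min meant a level at or above 0.22, the highest limit of the other arrays. On the arrays other than 30 min, between 23.2% and 40.2% of probes were well above background, and the number of arrays limits the precision. Changes were summarised over probes well above background on both arrays compared. Errors came from multi-spot probes outside the dark rectangle, with that of CTR standing in at 30 min. Of the member names, 39 of 41 occur in the buffalo RefSeq gene table of assembly NDDB_SH_1, without PSMC4 and PSMC3IP. Buffalo sequence was not analysed here, so base differences from the bovine probes are unknown.

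The members and lists were chosen with earlier results of these data known. Genes were named by a rule: members inside the rectangle, genes with probes on both sides, members called at 2 or more time points, and the 2 highest and 2 lowest genes of each family by mean change; others were named after their values were seen, and some genes of the pathway list are not reported by name here. Alternatives were normexp background correction (limma 3.58.1 in R 4.3.3, offset 50, on the mean and background intensities the authors deposited), other scalings, filters, references and cutoffs. Python 3.11.15, numpy 2.4.6 and pandas 2.3.3 were used, and the scripts were tested on simulated data.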

Additional observations from a re-analysis of the deposited data

How the results depend on the processing

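Across the scalings tried on the arrays from 2 h to 24 h, the members' median outside the rectangle minus that of all probes lay between -0.31 and 0.19, while the median itself moved with the scaling. Scaled to the array median, it was 0.35, 0.97 and -0.59 at 2, 4 and 24 h (core 0.30, 0.85 and -0.62, regulatory 0.42, 1.04 and -0.52, inside 1.49, 2.19 and 0.60), where all probes had 0.28, 0.90 and -0.56. Higher calls were then 7, 31 and 2 at 2, 4 and 8 h, and lower calls 0, 0, 11 and 7 at 2, 4, 16 and 24 h. Under normexp it was 0.28, 0.47 and 0.094 at 2, 4 and 12 h (core 0.28, 0.46 and 0.093, regulatory 0.27 and 0.61 at 2 h and 4 h, inside 1.49 and 1.66), with 6 and 12 higher calls at 2 h and 4 h and 0, 0 and 4 lower calls at 2 h, 4 h and 16 h. Quantile normalization gave 12, 7 and 11 lower calls at 2 h, 4 h and 16 h and 1 higher at 16 h. The percentile over bright probes gave 3 lower calls at 2 h and 4 higher at 16 h (all probes 18.2% and 11.5%). The 30 min scanner intensities, with 28 members measured, gave 2.19 (core 2.31, regulatory 2.09, inside 3.38) with 26 higher and 0 lower, and all probes had 2.02.

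Less the change of their neighbours, members inside the rectangle had medians of 0.32, 0.12, 0.22, 0.49, 0.22, 0.42 and -0.18 from 30 min to 24 h, and those outside 0.13 at 30 min and 0.069 at 2 h, with 2, 0, 0, 4 and 1 higher calls at 30 min and from 8 h to 24 h, and 2, 4 and 1 lower at 30 min, 2 h and 24 h. With the 8 h, 12 h and 24 h arrays in place of CTR, the median inside was -0.11, -0.26, -0.049 and -0.25 at 30 min and 2, 4 and 16 h. With dark positions set by their neighbours, PSMB4 and PSMD8 counted as outside, the medians inside were 2.21, 2.23, 2.50, 2.98, 2.86, 2.22 and 2.81 in time order, and 2 members outside were higher at 8 h. Without a filter, higher calls were 1, 2 and 2 at 30 min, 8 h and 12 h, and lower calls 16, 16, 1, 1 and 11 from 2 h to 16 h. With probes above background on all arrays, 2 were lower at 4 h. With 1 value per gene, 1, 1, 0 and 0 were higher from 2 h to 12 h and 3, 3, 1, 3 and 1 lower at 30 min, 2 h, 4 h, 16 h and 24 h. At 3-fold, 0 were higher at any time point from 2 h to 16 h. All probes outside had 253 of 10790, 176 of 10840, 40 of 10280, 5 of 10918 and 255 of 8909 higher at these times. Lower at 3-fold were 1, 2, 0, 1 and 0 at 30 min, 2 h, 4 h, 16 h and 24 h. All probes outside had 411 of 8219, 968 of 10790, 573 of 10840, 342 of 8909 and 43 of 9124 lower there. For the other counts of this paragraph, the share over all probes is not given here. Left out after the data were seen, the 7 members at the edge of the dark region took the 2-fold higher calls to 1, 2, 0, 0 and 0 from 2 h to 16 h. The causes were not tested.

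The deposited log2 values, the slide of CTR alone and the probes without PSMC3IP moved no count by over 1.5 times and no median by more than the error of a single change, the measure used here for medians too. These settings could hardly have moved them and are no check on the results. The deposited values use the same scaling, and within the slide of CTR the differences are the same ones. PSMC3IP was not well above background on any array. No paired analysis was possible because each condition had 1 array. Arrays of the other slide have no change from CTR within a slide. With 1 array a condition, spots give an error within an array only, and a culture's own spread is unknown.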
